A study of Saccharomyces cerevisiae with 39 samples.

Results

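Budding yeast lives as haploid cells of mating type a or alpha, and the 15 control libraries of a series of 39 came from 5 haploid strains of either type. The comparison set the 6 libraries of the MATa strains RRP40 and RRP6 against the 9 libraries of the MATα strains RRP4, RRP45 and RRP46. Mating type was read from the genotype in the labels, and each strain was grown in triplicate. Every strain carried ura3Δ0, leu2Δ0 and his3Δ1, lacked the chromosomal copy of 1 gene of the RNA exosome (the complex that trims and degrades RNA from its 3′ end), and had that wild-type gene back on the low-copy LEU2 plasmid pRS315. The MATa strain RRP40 was rrp40Δ::NEO with RRP40 on the plasmid. The MATa strain RRP6 was met15Δ0 and rrp6Δ::kanMX4 with RRP6 on the plasmid. The MATα strain RRP4 was lys2Δ0 and rrp4Δ::NEO with plasmid RRP4, the MATα strain RRP45 was rrp45Δ::NEO with plasmid RRP45, and the MATα strain RRP46 was lys2Δ0 and rrp46Δ::kanMX4 with plasmid RRP46. Cells were grown for 5 h at 37 °C in 10 mL of minimal medium without leucine, and rRNA-depleted total RNA was sequenced. A further label calls all of them BY4741, a MATa laboratory strain, which goes against the MATα genotypes of RRP4, RRP45 and RRP46. The other 24 libraries of the series are exosome mutants.

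The 2 mating types talk through peptide pheromones. A MATa cell secretes a-factor and senses α-factor with the receptor Ste2, while a MATα cell secretes α-factor and senses a-factor with Ste3. Mating type is set by the alleles at the MAT locus of chromosome III. In MATα cells the activator α1 acts with the general factor Mcm1 at α-specific genes, and the repressor α2 acts with Mcm1 and Tup1-Cyc8 at a-specific genes. In MATa haploids neither regulator is present, and Mcm1 alone activates a-specific genes. Unexpressed copies of both alleles are kept at the silent loci HML and HMR.

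Library totals were 23336166 to 41832757 counts in MATa libraries and 17244127 to 47076051 counts in MATα libraries, over 8898 features that include protein-coding genes and cryptic or stable unannotated transcripts (CUTs and SUTs). Levels are in CPM, the count divided by the TMM-scaled library size, except where library totals alone are named. Of the auxotrophic markers, LYS2 reached at most 0.0442 CPM of library totals in the lys2Δ0 strains, which was 0.0123% of its mean of 359.9 CPM elsewhere. MET17 (the gene of the met15Δ0 deletion) reached at most 0.0985 CPM in the RRP6 strain, against a mean of 112 CPM in the other 4 strains. LEU2, deleted on the chromosome and carried on the plasmid, had means of 1370 and 1480 CPM of library totals in RRP40 and RRP6. In RRP4, RRP45 and RRP46 its means were 1468, 1373 and 2201 CPM. URA3 and HIS3 were listed at 0 in all 15 libraries, as were 712 features in all, so these zeros alone are no evidence of the deletions. In each strain its plasmid-borne exosome gene was higher than in the other 4: RRP40 had 219 ± 20.1 CPM and RRP6 604 ± 86.8 CPM in their own MATa strains, and RRP4 had 358 ± 11.7, RRP45 353 ± 35.9 and RRP46 529 ± 32.0 CPM in their own MATα strains (SD, n = 3). RRP40 and RRP45 is the only MATa-MATα pair that shares all auxotrophic markers and the deletion cassette.

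The 5 strains differed from each other in many features, mostly by small amounts, and few of these differences followed mating type. A feature was called between strains at a Benjamini-Hochberg adjusted p under 0.05 in edgeR's quasi-likelihood test, fitted once over the 15 libraries with 7725 features tested. For the MATa strain RRP40, 60.2% of features were called against RRP4, 45.8% against RRP45 and 48.6% against RRP46. For the MATa strain RRP6, 31.4% were called against RRP4, 62% against RRP45 and 70.2% against RRP46. These calls set no minimum size. With a log2 fold change of at least 1 also required, the 6 pairs had from 85 (RRP6-RRP4) to 853 (RRP6-RRP46) calls. Strains of the same mating type differed in shares as large at the same threshold, with 67.9% called between RRP40 and RRP6. Among the MATα strains 54.4% were called between RRP4 and RRP45, 66.7% between RRP4 and RRP46 and 57.7% between RRP45 and RRP46. In all 6 MATa-MATα pairs 517 features were called, but 469 of them had directions that differed between pairs. The remaining 48 features, 0.621% of those tested, differed in the same direction in all 6 pairs: 23 were higher in MATa strains (0.298%) and 25 were lower (0.324%). These 48 are referred to as held. Libraries did not overlap between the mating types in 45 of the 48, where 29 features in all (0.375%) had every MATa library above every MATα library and 30 (0.388%) had every one below.

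**Figure D1:**
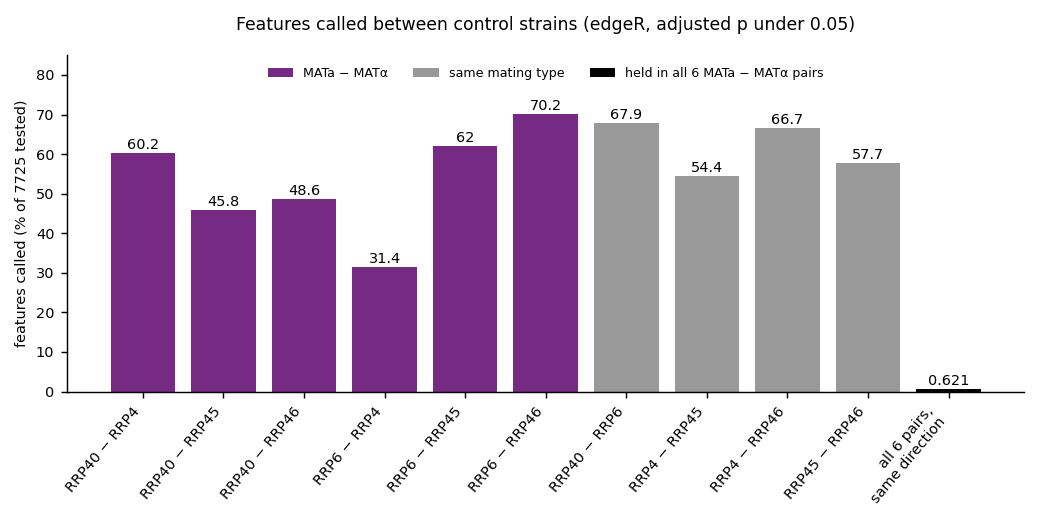
Share of the 7725 tested features called at an adjusted p under 0.05 (bars, % of features) in the 6 MATa-MATα strain pairs, the 4 pairs of the same mating type, and in all 6 MATa-MATα pairs in 1 direction. The pair bars lie between 31.4% and 70.2%, and the last bar is 0.621%.

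The held features comprised 6 of 7 a-specific genes, all 5 α-specific genes, 4 genes of the mating-type loci, 10 features listed next to one of these and 3 CUTs listed around the recombination enhancer of chromosome III. The last 20 lay elsewhere. In 20 of the 48 the difference was at least 2-fold in every pair, and none of these 20 lay elsewhere. Because the strain and not the library carries a mating type, an exact permutation of mating type over the 5 strains has 10 arrangements and cannot give a one-sided p below 0.1. Mating type cannot be told apart from any other difference between the 2 MATa and the 3 MATα strains. Leaving out a strain, by dropping its pairs from the same fit, leaves fewer pairs to pass. It raised the held count over 1.5-fold for each strain, to 1144 without RRP40, 805 without RRP6, 298 without RRP4, 148 without RRP46 and 74 without RRP45. The 48 are in each of these counts by construction, because they passed every pair.

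**Figure D2:**
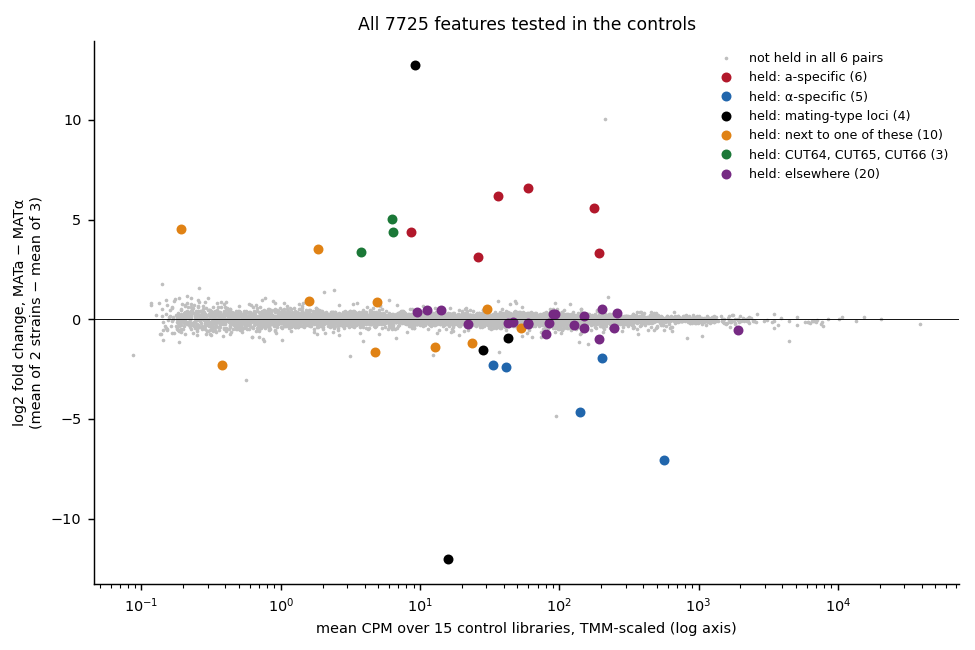
Mean log2 fold change (mean of the 2 MATa strains minus mean of the 3 MATα strains) against mean CPM over the 15 control libraries (log axis) for the 7725 features tested. Coloured points are the 48 held features by category and grey points the rest. The held a-specific genes lie between 3.12 and 6.57, the α-specific genes between -7.04 and -1.96, and most purple points lie close to 0. The a-specific gene ASG7 did not hold and is among the grey points. The grey points near 10 and -5 are LYS2 and MET17, which are deleted in some strains.

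The a-specific genes were high in both MATa strains and low in all 3 MATα strains. STE2 (YFL026W), the α-factor receptor, had 308, 419 and 567 CPM in MATa libraries (lowest, median and highest of 6), against 6.34, 8.97 and 11.4 CPM in MATα libraries (of 9). Its mean log2 fold change was 5.59 (SE 0.04), from 4.90 to 6.31 over the 6 pairs, with a largest adjusted p of 8.42e-25 in edgeR. Here and below, the SE of a mean log2 fold change covers spread between libraries of a strain and leaves out spread between strains. Each MATa library was far above each MATα library, and RRP40 was higher than RRP6 (550 ± 22.5 and 311 ± 2.41 CPM, SD, n = 3 each).

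MFA1 and MFA2 encode the a-factor precursors and showed the largest changes among the a-specific genes. MFA1 had 59.6, 89.2 and 120 CPM in MATa libraries, against 0.727, 1.27 and 1.62 CPM in MATα libraries (log2 fold change 6.20, SE 0.06). MFA2 had 101, 156 and 183 CPM in MATa libraries, against 0.894, 1.5 and 2.2 CPM in MATα libraries (log2 fold change 6.57, SE 0.08). The longest run of identical bases between the 2 genes is 11, so that reads of one would seldom match the other. Both genes were also higher in RRP40 than in RRP6, by a log2 fold change of 0.91 (SE 0.06) for MFA1 and 0.65 (SE 0.08) for MFA2, at adjusted p of 1.77e-11 and 4.35e-06 (edgeR).

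STE6, the transporter that exports a-factor, had 380, 426 and 434 CPM in MATa libraries, against 34.6, 41.0 and 49.4 CPM in MATα libraries (log2 fold change 3.31, SE 0.03). BAR1, the secreted protease that degrades α-factor, had 50.3, 55.1 and 63.1 CPM in MATa libraries, against 4.74, 6.90 and 8.38 CPM in MATα libraries (log2 fold change 3.12, SE 0.05). AGA2, the adhesion subunit of a-agglutinin, had 18.5, 19.7 and 22.8 CPM in MATa libraries, against 0.702, 1.02 and 1.23 CPM in MATα libraries (log2 fold change 4.36, SE 0.08). None of these 3 genes overlapped between the mating types, and the largest adjusted p over the 6 pairs was 4.70e-18 for BAR1, 9.72e-23 for STE6 and 8.77e-17 for AGA2.

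ASG7, which encodes an inhibitor of pheromone signalling that acts after mating, did not follow the other 6. It had 1.68, 2.03 and 2.22 CPM in MATa libraries, against 1.02, 1.57 and 1.99 CPM in MATα libraries. The libraries overlapped, and ASG7 was called in the 2 pairs with RRP46 only (log2 fold change 0.43, SE 0.10, largest adjusted p 0.602 in edgeR). Over the 7 a-specific genes the median log2 fold change was 4.36, against 0.01 over all features tested.

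The levels that a-specific genes kept in MATα libraries differed from gene to gene. The mean of the MATα libraries was 1.03% of the MATa mean for MFA2, 1.28% for MFA1, 2.02% for STE2, 4.91% for AGA2, 10.1% for STE6 and 11.7% for BAR1. The deleted genes LYS2 and MET17 reached at most 0.0123% and 0.0876% of their level in other strains, measured from library totals. The part that reads from other libraries have in these shares was not tested.

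α2 and Mcm1 bind a-specific genes at a shared palindromic operator, and the matches to a set spelling of it are printed. The letters searched were TGT, 4 to 6 bases, CC, 6 bases, GG, 4 to 6 bases and ACA (a pattern that reads the same on both strands), within 400 bases upstream of the start codon in the RefSeq R64 genome. All 6 held a-specific genes had 1 match, and neither ASG7 nor any of the 5 α-specific genes had one. Of 6002 protein-coding genes on the nuclear chromosomes, 16 had a match (0.267%). Each line gives the strand of the gene, 5′ to 3′, with the fixed letters of the pattern in capitals.
STE2 (chrVI:82345-82387, plus strand): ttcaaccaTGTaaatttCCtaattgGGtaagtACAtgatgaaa
STE6 (chrXI:46471-46513, minus strand): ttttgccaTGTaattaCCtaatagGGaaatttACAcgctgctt
MFA1 (chrIV:1384936-1384978, plus strand): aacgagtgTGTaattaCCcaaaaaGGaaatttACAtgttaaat
MFA2 (chrXIV:352157-352199, plus strand): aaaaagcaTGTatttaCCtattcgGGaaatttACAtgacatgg
BAR1 (chrIX:322072-322113, plus strand): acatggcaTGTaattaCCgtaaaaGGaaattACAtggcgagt
AGA2 (chrVII:437096-437137, minus strand): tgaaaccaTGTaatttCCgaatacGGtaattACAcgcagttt

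The first base of the pattern lay 227 bases before the start codon in STE2, 210 in STE6, 232 in MFA1, 249 in MFA2, 262 in BAR1 and 296 in AGA2. The other 10 genes with a match all passed the filter on low counts, and none of them held. Their mean log2 fold changes lay between -0.10 and 0.19, from the amino acid permease gene BAP2 to the spindle pole body gene MPS2. A match of these letters is a description of the upstream sequence and not a bound site. The lack of a match at ASG7 says only that this spelling is not in its window, and does not show that ASG7 lacks the operator.

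The α-specific genes were lower in MATa than in MATα libraries in all 6 pairs, and varied more among strains. MF(ALPHA)1, the main α-factor gene, had 6.07, 6.82 and 7.92 CPM in MATa libraries, against 644, 801 and 1356 CPM in MATα libraries (log2 fold change -7.04, SE 0.06, largest adjusted p 4.12e-25 in edgeR). STE3 (YKL178C), the a-factor receptor, had 7.0, 9.01 and 11.4 CPM in MATa libraries, against 138, 218 and 334 CPM in MATα libraries (log2 fold change -4.63, SE 0.04, largest adjusted p 2.21e-23). Both genes had every MATα library above every MATa library, so the receptor of each mating type followed its label in all 15 libraries.

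AFB1, which encodes a secreted a-factor barrier protein, had 8.80, 11.5 and 14.5 CPM in MATa libraries, against 43.6, 52.5 and 92.7 CPM in MATα libraries (log2 fold change -2.39, SE 0.05). MF(ALPHA)2, the minor α-factor gene, had 5.39, 5.65 and 6.96 CPM in MATa libraries, against 12.1, 15.8 and 136 CPM in MATα libraries (log2 fold change -2.28, SE 0.06). SAG1, the α-agglutinin that binds the a-agglutinin of the partner cell, had 40.6, 45 and 49.4 CPM in MATa libraries, against 65.5, 106 and 817 CPM in MATα libraries (log2 fold change -1.96, SE 0.04). The libraries of the mating types did not overlap in any of the 3 genes, but the smallest pair was much weaker than the mean for the last 2. In RRP6 against RRP4 the log2 fold change was -0.94 for MF(ALPHA)2 and -0.52 for SAG1. In RRP40 against RRP46 it was -4.54 for MF(ALPHA)2 and -4.13 for SAG1, a spread between strains that the SE above does not hold. Over the 5 α-specific genes the median log2 fold change was -2.39, against 0.01 over all features tested.

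**Figure D3:**
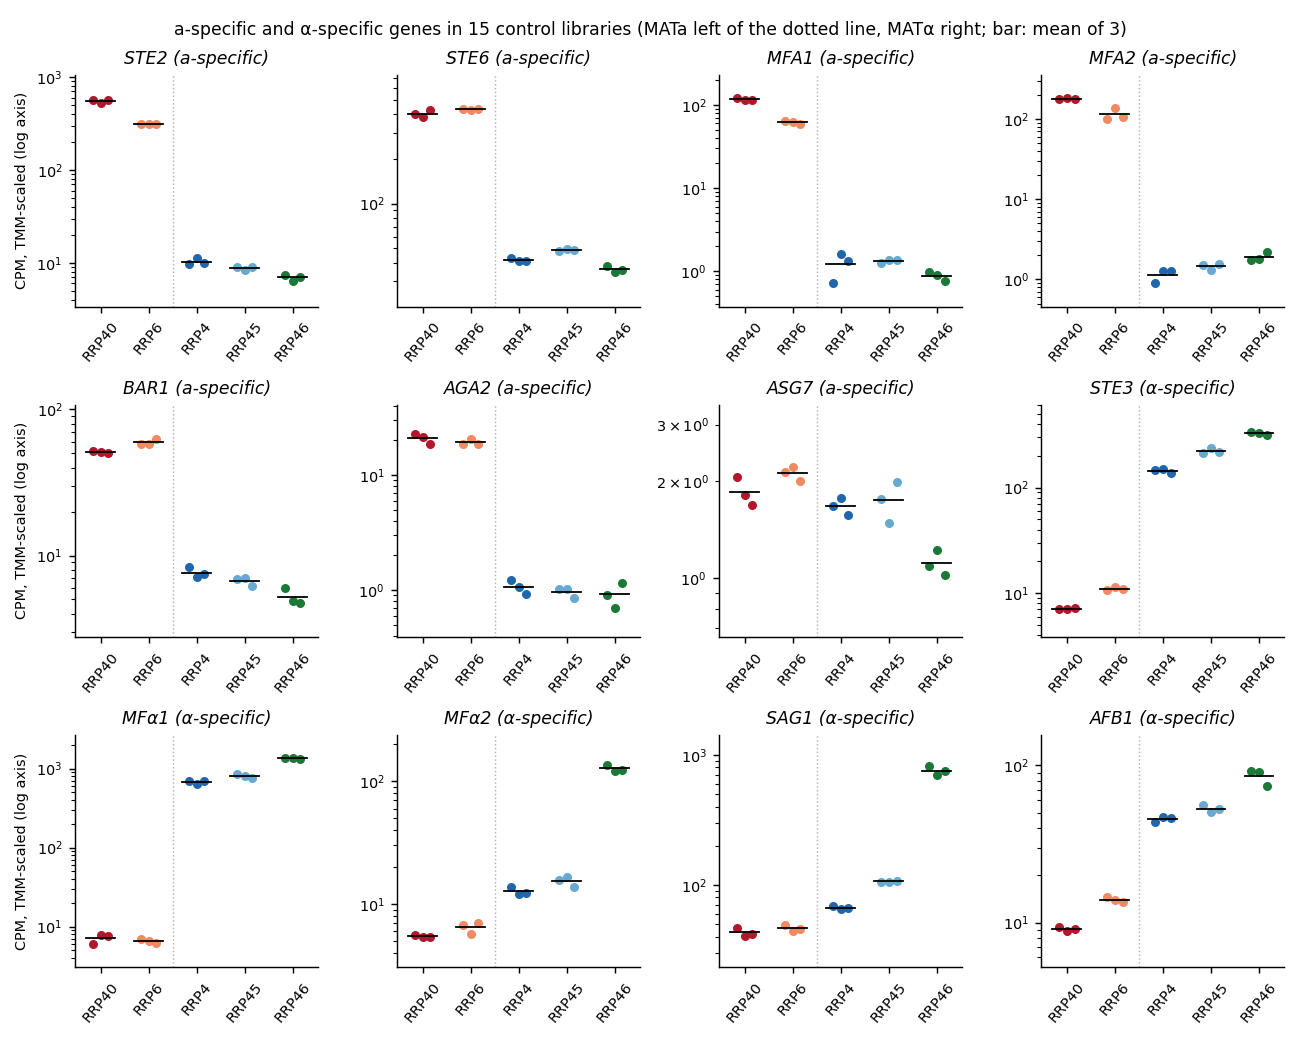
CPM (TMM-scaled, log axis) of the 7 a-specific and 5 α-specific genes in each of the 15 control libraries. Points are libraries, bars the mean of 3, with the MATa strains RRP40 and RRP6 left of the dotted line and the MATα strains right of it. STE2 is at 308 to 567 CPM on the left and 6.34 to 11.4 on the right, ASG7 shows no gap, and SAG1 and MF(ALPHA)2 are far higher in RRP46 than in RRP4 and RRP45.

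The RRP46 strain stood apart from the other MATα strains in its α-specific genes. SAG1 had 757 ± 57.5 CPM in RRP46, against 106 ± 0.833 CPM in RRP45 and 66.7 ± 1.37 CPM in RRP4 (SD, n = 3 each). MF(ALPHA)2 had 128 ± 7.04 CPM in RRP46, against 15.4 ± 1.45 CPM in RRP45 and 12.7 ± 0.943 CPM in RRP4. For SAG1 the log2 fold change was 2.83 (SE 0.06) over RRP45 and 3.51 (SE 0.06) over RRP4, and for MF(ALPHA)2 it was 3.05 (SE 0.07) and 3.34 (SE 0.07), all at adjusted p of at most 1.09e-19 (edgeR). All 5 α-specific genes were called higher in RRP46 than in both other MATα strains, as were 21.5% of all features tested. Other lists differed too: 5 of 7 a-specific genes were called lower than in both and 0 higher, where 20.8% of all features were lower. Of 14 pheromone kinase pathway genes, 7 were called higher than in both and 3 lower. In 25 features (0.324%) the RRP46 level was at least 4-fold above both, and 2 of these were SAG1 and MF(ALPHA)2.

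SAG1 and MF(ALPHA)2 kept this pattern in mutant libraries that the comparison did not use. Their strains share the backgrounds of the controls, so they add no further strain background. In rrp46 missense strains SAG1 had 884 ± 178 (rrp46-Q86I), 947 ± 16.2 (rrp46-L127T) and 458 ± 28.0 CPM (rrp46-L191H), against 122 ± 5.28 CPM in rrp45-I15P and 73.6 ± 3.91 CPM in rrp4-G226D (SD, n = 3 each). MF(ALPHA)2 had 150 ± 33.4, 159 ± 10.7 and 63.6 ± 7.61 CPM in the same rrp46 strains, against 15.2 ± 0.559 CPM in rrp45-I15P and 13.8 ± 1.59 CPM in rrp4-G226D. These were scaled among the 24 mutant libraries, and the groups were not tested against each other. The lys2Δ0 and kanMX4 alleles are shared by the rrp46 strains, and only lys2Δ0 also by the RRP4 strains.

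HMRA1 and HMLALPHA1 were each nearly absent from 1 mating type. They and 2 other genes of the mating-type loci held, while MATALPHA2 did not and MATALPHA1 was too low to be tested. HMRA1, which encodes the a1 regulator, had 4475 counts in the 6 MATa libraries (537 to 964 in each) and 0 counts in the 9 MATα libraries. Its level was 23.3 CPM of library totals in MATa, and at least 2845-fold higher than 3 counts over all MATα libraries would give. HMLALPHA1, which encodes the activator α1, had 1 count in the 6 MATa libraries and 9679 counts in the 9 MATα libraries (447 to 1312 in each). After division by library totals the MATα to MATa ratio was 5120, with an exact Clopper-Pearson 95% interval of 918 to 202000 that covers counting error only. Every MATa library had a1 reads and every MATα library had α1 reads, as the genotype labels state.

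Counts at HML and HMR do not show that the silent loci were transcribed. In the R64 genome the MAT locus carries the α allele, and all 528 bases of HMLALPHA1 are identical to MATALPHA1, as are all 633 bases of HMLALPHA2 to MATALPHA2. MATALPHA1 had 9 counts in all over the 9 MATα libraries and 0 over the 6 MATa libraries, so reads of the shared sequence were entered under HML. HMRA1 shares no run longer than 12 bases with MATALPHA1 or MATALPHA2, so that a1 reads of a MATa chromosome have HMRA1 as their match. How reads with several matches were placed is not given in the sources used here.

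HMRA2 and HMLALPHA2 were both lower in MATa libraries and not absent from them. HMLALPHA2, the α2 repressor gene, had 11.3, 13.0 and 14.3 CPM in MATa libraries, against 27.1, 36.6 and 50.7 CPM in MATα libraries (log2 fold change -1.54, SE 0.05). HMRA2 had 23.2, 27.1 and 29.4 CPM in MATa libraries, against 36.1, 52.6 and 69.6 CPM in MATα libraries (log2 fold change -0.95, SE 0.04). All 360 bases of HMRA2 lie within MATALPHA2 and HMLALPHA2, where they make up 56.9% of HMLALPHA2, so reads of the a2 and α2 messages cannot be told apart there. MATALPHA2 itself had 0.187 to 0.480 CPM in MATa and 0.267 to 0.867 CPM in MATα libraries and did not hold.

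Of 45 tested features listed within 1000 bases or 2 places of a mating gene, 10 held and 35 did not. The held share was 22.2%, against 0.621% of all features tested. Of the 10, 9 had the direction of the gene beside them, and YLR041W had the opposite one. Where a feature overlaps or adjoins a mating gene, reads of the 2 cannot be separated here, because the strand setting of the counting is not given in the sources used here. YCR097W-A, listed directly after HMRA1, had 0.186, 0.440 and 0.776 CPM in MATa libraries, against 0, 0 and 0.0463 CPM in MATα libraries. YCL065W, listed directly after HMLALPHA1, had 1.57, 2.18 and 2.65 CPM in MATa libraries, against 4.97, 6.28 and 8.25 CPM in MATα libraries. YKL177W and SUT453 are listed between STE3 and LST4, and had median levels of 0.118 and 6.32 CPM in MATa libraries, against 0.574 and 17.3 CPM in MATα libraries.

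YNL146C-A had 3.27, 4.14 and 4.79 CPM in MATa libraries, against 0.221, 0.335 and 0.445 CPM in MATα libraries (log2 fold change 3.53, SE 0.12, largest adjusted p 1.53e-11 in edgeR). It lies at chrXIV:351386-351580 on the minus strand, 833 bases upstream of MFA2 and pointing away from it. YNL146W, between the 2, was called higher in 4 of 6 pairs (median 6.83 CPM in MATa libraries, against 3.83 CPM in MATα libraries) and did not hold. GYP8, which encodes a GTPase-activating protein of Rab GTPases, shares a 667-base intergenic region with the divergent STE2. It had 35.6, 36.5 and 37.8 CPM in MATa libraries, against 23.9, 25.6 and 27.2 CPM in MATα libraries (log2 fold change 0.51, SE 0.03, from 0.44 to 0.59 over the pairs). The operator of STE2 printed above lies 440 bases before the start codon of GYP8, outside the window searched for that gene.

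The remaining neighbours had smaller differences. HOP2, a meiotic recombination gene that converges on AGA2 with 168 bases between, was higher in MATa libraries, at 5.80, 6.61 and 7.54 CPM, against 2.17, 4.35 and 5.13 CPM in MATα libraries. This call was lost in DESeq2 (adjusted p 0.0547) and in 5 of 15 fits that left out 1 library. NFG1, a regulator of filamentous growth upstream of AFB1 on the same strand, was lower, at 8.35, 13.7 and 19.4 CPM in MATa libraries, against 23.1, 26.2 and 43.1 CPM in MATα libraries. YLR041W, listed between AFB1 and NFG1, went the other way, with a median of 2.29 CPM in MATa libraries, against 1.19 CPM in MATα libraries; its libraries overlapped and its call was lost with library totals (adjusted p 0.116). POS5, the mitochondrial NADH kinase gene 997 bases upstream of MF(ALPHA)1, had 38.3, 43.9 and 51.2 CPM in MATa libraries, against 53.8, 58.6 and 65.2 CPM in MATα libraries.

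**Figure D4:**
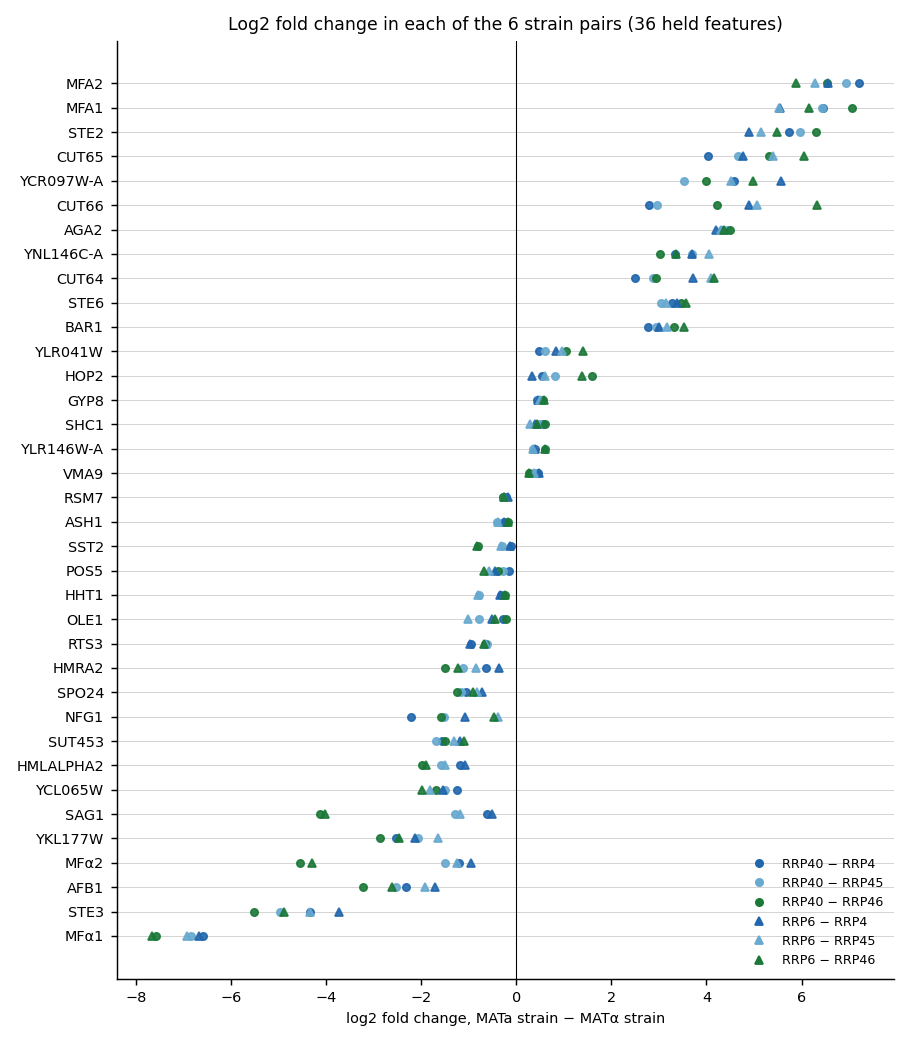
Log2 fold change (MATa strain minus MATα strain, horizontal axis) in each of the 6 strain pairs for 36 held features, sorted by their mean. Circles are pairs with RRP40 and triangles pairs with RRP6, coloured by the MATα strain. All points of a feature lie on 1 side of 0, and SAG1 and MF(ALPHA)2 split by whether the MATα strain is RRP46.

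Among the held features outside the mating genes and their neighbours, those with the largest differences were 3 cryptic unstable transcripts, CUT64, CUT65 and CUT66. CUTs are short-lived noncoding RNAs that the nuclear exosome normally removes. The deposited files list all 3 between KAR4 and SPB1. In these files 99.98% of neighbouring features with RefSeq positions stand in coordinate order, a share that does not include CUTs. The interval chrIII:28937-31448 of R64 holds the recombination enhancer, annotated at chrIII:29108-29809, and the gene RDT1 at chrIII:30910-30996. The recombination enhancer is known to be active in MATa cells, where it directs the choice of HML as donor in mating-type switching, and α2 with Mcm1 keeps it inactive in MATα cells.

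CUT65 had 10.2, 14.2 and 19.8 CPM in MATa libraries, against 0.191, 0.417 and 1.01 CPM in MATα libraries (log2 fold change 5.04, SE 0.10, largest adjusted p 2.21e-15 in edgeR). CUT66 had 5.34, 13.6 and 26.6 CPM in MATa libraries, against 0.178, 0.762 and 1.06 CPM in MATα libraries (log2 fold change 4.37, SE 0.11). CUT64 had 4.46, 8.41 and 12 CPM in MATa libraries, against 0.417, 0.727 and 0.973 CPM in MATα libraries (log2 fold change 3.38, SE 0.11). No library of a MATα strain reached the lowest MATa library for any of the 3, and every call stood in each alternative fit and without each library.

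The 2 MATa strains also differed from each other in these transcripts. CUT66 had 5.74 ± 0.403 CPM in RRP40 and 24.6 ± 3.09 CPM in RRP6 (log2 fold change -2.11, SE 0.12, adjusted p 9.85e-13), and CUT64 and CUT65 were lower in RRP40 by log2 fold changes of -1.22 (SE 0.13) and -0.74 (SE 0.10). The flanking features did not hold. KAR4, a regulator of karyogamy genes, had median levels of 22.4 CPM in MATa libraries and 25.0 CPM in MATα libraries. SPB1, a methyltransferase of ribosome synthesis, had medians of 286 CPM in MATa libraries and 202 CPM in MATα libraries. CUT63, listed before KAR4, had medians of 3.61 CPM in MATa libraries and 2.45 CPM in MATα libraries. The operator letters above had 0 matches in the interval, which says only that this spelling is not there. CUT63 to CUT66 carry no coordinates in the sources used here, so their distance from the enhancer is not given.

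**Figure D5:**
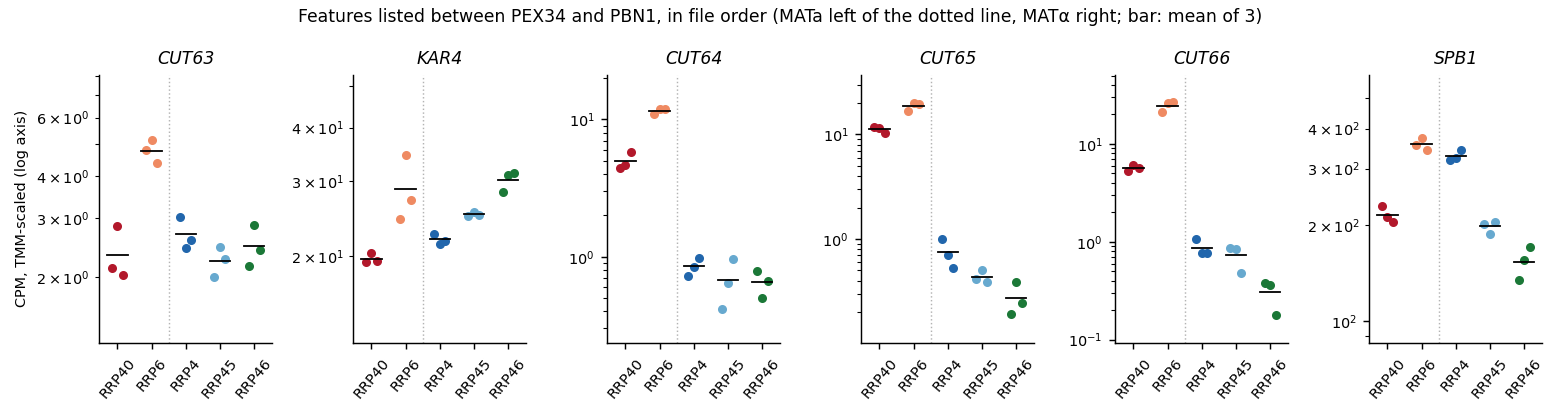
CPM (TMM-scaled, log axis) of the 6 features that the files list between PEX34 and PBN1, in that order, in each of the 15 control libraries. Points are libraries and bars the mean of 3, with MATa strains left of the dotted line. CUT64, CUT65 and CUT66 separate the mating types (CUT65 from 10.2 CPM upwards on the left and up to 1.01 CPM on the right), and CUT63, KAR4 and SPB1 do not.

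The 20 held features elsewhere in the genome had small differences, and most depended on how libraries were scaled. In 16 of the 20 the smallest pair was under 1.2-fold, and 16 of the 20 were no longer called in all 6 pairs when library totals replaced TMM factors, against 1 of the other 28. Library totals shift each pair by -0.19 to 0.25 on the log2 scale relative to TMM, which is more than the smallest-pair difference of many of these genes. Only SPO24, RTS3, SHC1 and OLE1 were called in every one of the 5 other fits and in all 15 that left out a library. In the mutant libraries, looked up below, the mating types overlapped for each of these genes.

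SPO24, a small gene linked to sporulation, had 87.8, 128 and 142 CPM in MATa libraries, against 202 to 288 CPM in MATα libraries (log2 fold change -0.98, SE 0.10, largest adjusted p 0.00446 in edgeR). RTS3, whose product is linked to protein phosphatase 2A, had 47.8, 58.3 and 64.3 CPM in MATa libraries, against 84.6, 91.7 and 126 CPM in MATα libraries (log2 fold change -0.75, SE 0.08). OLE1, the fatty acid desaturase, had 1341, 1540.0 and 1660.0 CPM in MATa libraries, against 1833, 1952 and 2871 CPM in MATα libraries (log2 fold change -0.54, SE 0.03). SHC1, a sporulation activator of chitin synthesis, was the exception in direction, with 12.3, 13.4 and 14.6 CPM in MATa libraries, against 8.53, 9.89 and 10.6 CPM in MATα libraries (log2 fold change 0.46, SE 0.05).

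Among the features whose call depended on the scaling, YLR146W-A (log2 fold change 0.45, SE 0.06) and VMA9, a subunit of the vacuolar proton pump (0.37, SE 0.06), were higher in MATa libraries. HHT1, 1 of the gene copies of histone H3 (-0.45, SE 0.04), ASH1, the repressor of HO in daughter cells (-0.27, SE 0.03), and RSM7, a mitochondrial ribosomal protein (-0.24, SE 0.04), were lower. With library totals their largest adjusted p was 0.0665 for YLR146W-A, 0.169 for VMA9, 0.913 for HHT1, 0.167 for ASH1 and 0.946 for RSM7. A further 10 features, 5 higher and 5 lower, had smallest pairs under 1.2-fold, and all 10 lost the call with library totals.

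Genes of the pheromone response that both haploid types use were read against the 0.621% of all features that held. Of 14 tested kinase pathway genes, SST2 alone held: the GTPase-activating protein of the Gα subunit Gpa1 had 118, 126 and 128 CPM in MATa libraries, against 130, 153 and 224 CPM in MATα libraries (log2 fold change -0.41, SE 0.03). Its smallest pair was -0.10, and the call was lost in DESeq2 (adjusted p 0.0887) and with library totals (0.693). None of the 10 tested haploid-specific genes, 11 regulators of cell type, 6 genes of a-factor processing or 3 of α-factor processing held. At the share over all features, lists this short would seldom hold a gene. The median log2 fold changes of these lists were -0.06, -0.09, -0.01 and -0.01, and that of the kinase pathway was -0.07, against 0.01 over all features tested.

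Of 28 pheromone-induced genes 23 were tested, and BAR1 (higher) and SST2 (lower) held. The median log2 fold change of the 23 was -0.18. In the pairs with RRP40, 16 (RRP4), 18 (RRP45) and 13 (RRP46) of them were called lower in the MATa strain, where 30%, 22.8% and 23.2% of all features were. In the pairs with RRP6 these counts were 4, 10 and 8, where 16.7%, 30.1% and 33.7% of all features were called lower. Called higher in the MATa strain were 4 (RRP4), 2 (RRP45) and 3 (RRP46) of the 23 in the pairs with RRP40, where 30.1%, 23% and 25.4% of all features were. In the pairs with RRP6 6, 5 and 8 were called higher, where 14.7%, 31.8% and 36.6% of all features were. The members named next were chosen after their values were seen. AGA1, the anchor subunit of a-agglutinin, had 28.2, 36.6 and 42.8 CPM in MATa libraries, against 44.4, 68.1 and 96.9 CPM in MATα libraries. FUS1, a membrane protein of cell fusion, had 10.6, 12.8 and 15.4 CPM in MATa libraries, against 14.2, 20.8 and 34.6 CPM in MATα libraries. AGA1 and FUS1 were each called lower in 5 of 6 pairs and missed RRP6 against RRP4, so neither held (largest adjusted p 0.216 and 0.432 in edgeR). Other members went the opposite way or both ways. CIK1, which encodes a partner of the kinesin Kar3, had 26.1, 26.8 and 31.1 CPM in MATa libraries, against 21.3, 23.9 and 31.4 CPM in MATα libraries, and was called higher in 4 pairs and lower in 0. FUS2, a cell fusion gene, was called higher in the 3 pairs with RRP6 and lower in the 3 with RRP40. KAR3 was called higher in the same 3 pairs with RRP6 and lower in RRP40 against RRP4. FAR1, MSG5, PRM1, PRM10 and AFR1 were listed at 0 in all 15 libraries, which in these files is no evidence of silence.

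The same features were looked up in the 9 MATa and 15 MATα mutant libraries, whose strains share the backgrounds of the controls. The mating types did not overlap and kept the direction in 23 of the 28 held features in or beside the mating genes and the enhancer interval, and in 2 of the 20 elsewhere. Over all 7725 features 34 did not overlap (0.44%). The 2 elsewhere were among the features that lost the call with library totals, while SPO24, RTS3, SHC1 and OLE1 overlapped in the mutants. The 5 of the 28 whose libraries overlapped were SAG1, HMRA2, YCL065W, YLR041W and HOP2. SAG1 had 45.3 ± 2.0 CPM in rrp40-S87A, 60.3 ± 6.46 CPM in rrp40-W195R and 83.5 ± 2.31 CPM in rrp6Δ among MATa mutants (SD, n = 3 each), the last above the 73.6 CPM of the MATα mutant rrp4-G226D. CUT65 had 9.95 to 26.0 CPM in MATa mutant libraries, against 0.0629 to 1.58 CPM in MATα mutant libraries.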

How the data were processed

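RNA from 15 control libraries (2 MATa and 3 MATα strains, 3 libraries each) was analysed. The deposited files hold raw counts per feature as whole numbers. STAR, featureCounts 1.22.2 and StringTie 2.1.7 with genome build R64, and DESeq2 1.38.1, are named per the submitters' processing notes; the authors' annotation, strand setting and treatment of multiple matches are not given in the sources used here. The file headers name files with marked duplicates.

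Counts were fitted in R 4.3.3 with edgeR 4.0.16 (default expression filter, TMM, robust quasi-likelihood, 1 mean per strain, no covariate), two-sided, with Benjamini-Hochberg adjustment over 7725 features in each of 6 MATa-MATα pairs. A feature held when its adjusted p was under 0.05 with 1 sign in all 6. The mean log2 fold change and its SE give size only, and the SE leaves out spread between strains. The procedure was tested on simulated data. Far fewer features differed between strains there than in these libraries, so false holds from strain differences were not measured at this level. Libraries of a strain differed beyond sampling noise (chi-square per degree of freedom 6.63 to 31.1), and each counted as 1 replicate. The series text calls them biological triplicates. Alternatives were DESeq2 1.42.0, library totals, no filter, pairwise fits, a replicate block, a stricter p, a minimum fold and leaving out each library; leaving out each strain was added after seeing the data.

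Features were matched to RefSeq R64 by locus tag (6048) or symbol (114). The text names all a-specific, α-specific, mating-locus and genotype genes, held members of other lists, held neighbours (within 1000 bases, or 2 places in the files), and up to 10 further held features a direction with at least 1 CPM; AGA1, FUS1 and the features beside the enhancer were named after their values were seen. The groups and gene lists were chosen with earlier results of these data known. Deposited comparison tables were not used. A search for upstream motifs of α-specific genes is not reported here.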

Additional observations from a re-analysis of the deposited data

Results flagged for a closer look

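In 3 of 80 groups of libraries examined (a named feature in 1 mating type) 1 library stood apart from the others by the gap between its value and the next, which chance gives in about 1 of 20 such groups. HMLALPHA1 had 0.0220 CPM in replicate 1 of the MATa strain RRP6, which is its single read, and 0 in the other 5 MATa libraries. RTS3 had 126 CPM in replicate 1 of the MATα strain RRP4, against 84.6 to 105 CPM in the other 8 MATα libraries. RSM7 had 21.7 CPM in replicate 3 of the MATa strain RRP6, against 19.2 to 19.9 CPM in the other 5 MATa libraries.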

How the results depend on the processing

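The 48 held features became 43 in DESeq2 (42 of them shared), 41 with library totals (31 shared; 23 higher and 18 lower in MATa, against 23 and 25 with TMM), 46 without the filter on low counts, 45 with each pair fitted alone, 32 at an adjusted p under 0.01, and 38 to 48 when 1 library was left out. At an adjusted p under 0.01, 15 were higher in MATa, and RRP6 against RRP4 had 1425 calls. With a log2 fold change of at least 1 required, 20 held (12 higher, 8 lower), and the pairs had 563 (RRP40-RRP4), 214 (RRP40-RRP45), 241 (RRP40-RRP46), 85 (RRP6-RRP4), 531 (RRP6-RRP45) and 853 (RRP6-RRP46) calls. Without 1 strain fewer pairs had to pass, and 1144 (without RRP40), 805 (RRP6), 298 (RRP4), 74 (RRP45) or 148 (RRP46) features held. In the fits that kept all 5 strains, none of the 48, ASG7, MATALPHA2, AGA1 or FUS1 changed direction; AGA1 held with each pair fitted alone (adjusted p 0.0274) and without RRP46 replicate 3 (0.0487). YCR097W-A has no adjusted p in DESeq2, at a highest level of 0.776 CPM.

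With the replicate number as a block 48 features held, the same ones. Deviations of libraries with the same number in different strains correlated at -0.131 to 0.0852 over 30 pairs (median 0.01), so the numbers were not taken to pair libraries. Depth limits YCR097W-A, YKL177W and MATALPHA2, which lie under 1 CPM.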

Other observations

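ANB1, HEM13 and CYC7 were high in 1 strain of either mating type, RRP40 and RRP46. They were chosen after their values were seen, among the 25 features at least 4-fold higher in RRP46 than in both other MATα strains, and no gene list was tested. ANB1, a translation factor gene, had 56.8 ± 1.45 CPM in RRP40 and 8.25 ± 0.596 CPM in RRP6 among MATa strains, and 8.27 ± 1.01, 8.68 ± 0.472 and 119 ± 10.2 CPM in the MATα strains RRP4, RRP45 and RRP46 (SD, n = 3 each). HEM13, of heme synthesis, had 287 ± 12.5 and 54.7 ± 3.94 CPM in RRP40 and RRP6, and 71.9 ± 3.38, 66.3 ± 3.56 and 399 ± 15.6 CPM in RRP4, RRP45 and RRP46. CYC7, a cytochrome c isoform, had 23.4 ± 6.44 and 3.49 ± 0.0867 CPM in RRP40 and RRP6, and 3.31 ± 0.370, 6.08 ± 0.840 and 35.3 ± 2.65 CPM in RRP4, RRP45 and RRP46.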
